A study of Sylvia borin with 20 samples.

Results

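The genes examined here build fatty acids and triglycerides, and they were measured in whole blood of 10 garden warblers that were sampled on day 5, when the birds were fat, and on day 1, when the same birds were lean. The 10 genes, ACLY, SREBF1, ACACA, FASN, SCD, ELOVL6, AGPAT3, DGAT2, ME1 and LPIN1, were taken by symbol from the 20898 gene symbols of the deposited tables, and all 10 were found. The birds were wild migrants caught in spring on an island stopover and chosen for a low body mass, and each was then kept in its own cage with mealworms and water ad libitum. Every bird was lean first and fat later, so the fat state cannot be told apart from the days in a cage and the change of diet. No genotype, drug or sex is given in the labels. There were 10 fat and 10 lean libraries, and libraries with the same replicate number come from the same bird. The sample codes of birds 8 and 10 differ between the labels and the study's table of birds, and these libraries were paired by the labels. By correlation over genes, each of the 10 fat libraries was best matched by the lean library of its own number.

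Fat is the main fuel of long migratory flights. In the cell, citrate from mitochondria is split by ACLY into acetyl-CoA, which ACACA turns into malonyl-CoA, and FASN joins these units into palmitate with reducing power that partly comes from ME1. ELOVL6 lengthens the product and SCD adds a double bond. AGPAT3, LPIN1 and DGAT2 act on the route that attaches fatty acids to glycerol, and SREBF1 encodes a transcription factor that switches on much of the pathway. In birds most of this synthesis takes place in the liver, and blood carries the products rather than being known as a site of fat synthesis.

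Avian blood holds nucleated red cells, thrombocytes and leukocytes, all of them in the RNA of a library, so fewer cells of a type and less RNA per cell cannot be told apart. The red cell markers HBAA, SLC4A1 and GATA1 were above 0 in all 20 libraries. Levels are given as FPKM (reads scaled for the length of the gene and the size of the library), divided by a median-of-ratios factor per library and called normalized FPKM below. FPKM is scaled for gene length, but the reads were mapped to the genome of another species, the zebra finch. How much this changed the level of each gene was not tested, so comparisons of level between genes are descriptive. Library depth was inferred from the ratio of deposited coverage to FPKM and is not the amount of sequence read by the machine. It lay between 1.27 and 3.16 gigabases in fat libraries and between 0.882 and 4.71 gigabases in lean libraries. The medians were 2.34 gigabases in fat and 1.66 in lean libraries. Between 6467 and 7667 symbols were above 0 in fat libraries against 6776 to 8623 in lean libraries. Read counts are not part of the tables used here, so counting error could not be computed. A value of 0 is reported as listed at 0, since 149 symbols with a median FPKM above 2 were listed at 0 in at least 1 library. Testing was limited to genes whose deposited FPKM averaged 0.1 or more and was done on log2(normalized FPKM + 0.1), a scale on which the change of low genes is understated. Fat and lean libraries were compared in limma over 7800 genes, with Benjamini-Hochberg adjustment and a threshold of 0.05.

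Of the 7 genes of the set that were tested, 3 were called lower in fat birds and 4 were not called. Whether the change differed between genes was not tested. ACLY, SREBF1 and AGPAT3 were lower in all 10 birds when fat and passed the test. ACACA, FASN, ELOVL6 and ME1 were also tested and did not pass, and no gene of the set was called higher in fat birds. SCD, DGAT2 and LPIN1 fell under the expression filter. Of the 7800 genes tested, 4.76% were called, 3.27% lower and 1.49% higher in fat birds. With bird in the model the same 3 genes of the set were called lower, where 13.3% of all genes were called, 8.08% lower and 5.18% higher. The 3 calls lower among 7 genes tested are a description and not independent support, because the set was chosen with earlier results known and AGPAT3 and FASN reached a mean of 0.1 only in the lean libraries. On the log2 scale the median change, fat over lean, of the 7 genes was −0.31, against −0.10 for all genes tested, and 5 of the 7 were below 0, against 57% of all genes.

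By median level ELOVL6, ACLY and SREBF1 came first in the set in both conditions. ELOVL6 was highest, with a median of 4.58 normalized FPKM in fat and 4.64 in lean libraries, and its mean over all libraries exceeded that of 70.4% of the genes tested. ACLY came next and SREBF1 followed, while ACACA, FASN, ME1 and AGPAT3 all had medians of at most 0.175 in both conditions. In fat libraries the range of SREBF1 overlapped those of ACACA and ME1, and the mean of ME1 (0.262) was above that of SREBF1 (0.208), so the order of the low genes is not resolved. The deposited coverage shows how little sequence lies behind the low values. Median coverage was 0.782 reads per base in fat and 2.25 in lean libraries for ACLY, but 0.164 in fat and 0.312 in lean libraries for FASN.

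ACLY links sugar breakdown to fat synthesis, as it makes the acetyl-CoA used in the cytosol. In the coordinates of the zebra finch genome it lies on the plus strand of sequence NC_045025.1 from 2506193 to 2530438. Its level ranged from 0.198 to 1.66 normalized FPKM in fat libraries, with a median of 0.912, and from 1.11 to 5.50 in lean libraries, with a median of 2.12. The groups overlapped, but 7 lean libraries lay above every fat library and 6 fat libraries below every lean library. The mean was 0.963 ± 0.500 in fat and 2.65 ± 1.51 in lean libraries (SD, n = 10 each). The log2 fold change was −1.39 (standard error 0.35, 95% interval −2.11 to −0.67, adjusted p = 0.03 from limma). The fall differed in size between birds, with a log2 difference of −0.15 in bird 8 and −2.74 in bird 2. In bird 2 ACLY had 0.692 normalized FPKM when fat and 5.19 when lean, and in bird 8 it had 1.38 when fat and 1.54 when lean. The adjusted p from limma was above the threshold when bird 2 (0.0648), 3 (0.0524), 5 (0.061), 7 (0.0616) or 10 (0.0776) was left out. Over the 10 omissions the log2 fold change of ACLY ran from −1.53 to −1.24. Calls over all 7800 genes ran from 73 to 400 in these fits, against 371 with all birds. With bird added to the model, so that each bird was set against itself, the adjusted p stayed between 0.014 and 0.0328 over all 10 omissions.

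SREBF1 encodes the SREBP-1 factor, which is released from membranes to activate genes of fatty acid synthesis, ACLY and FASN among them in mammals. It lies on the minus strand of NC_045013.1 from 5935915 to 5946569. It was listed at 0 in 3 fat libraries, of birds 1, 6 and 7, and above 0 in all 10 lean libraries. Its level reached 0.527 normalized FPKM in fat libraries, with a median of 0.226, and ranged from 0.138 to 1.62 in lean libraries, with a median of 0.63. The groups overlapped, and 6 lean libraries lay above the highest fat library. Each bird had less SREBF1 when fat, with a log2 difference of −0.49 in bird 9 and −2.84 in bird 1. The log2 fold change was −1.63 (standard error 0.44, 95% interval −2.54 to −0.73, adjusted p = 0.0376 from limma). Its size depends on the pseudocount, with −2.75 at 0.01 (adjusted p = 0.0595 from limma) and −0.54 at 1 (adjusted p = 0.0361 from limma). The adjusted p was above the threshold without bird 1 (0.0784), bird 2 (0.0616), bird 5 (0.0712), bird 6 (0.0804), bird 7 (0.0675), bird 8 (0.0602) or bird 10 (0.0976). With bird in the model it stayed between 0.00573 and 0.0216 over all 10 omissions.

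AGPAT3 encodes an acyltransferase of the endoplasmic reticulum that adds a fatty acid to lysophosphatidic acid, a step toward triglycerides and membrane phospholipids. It lies on the minus strand of NC_044998.1 from 108616736 to 108704346. It was listed at 0 in 9 of 10 fat libraries, and the fat library of bird 3 had 0.0393 normalized FPKM. All 10 lean libraries had a value above 0, from 0.0782 to 0.753, with a median of 0.137. The groups did not overlap, which was the case for 4 of the 7800 genes in the same direction, or 0.0513%. A search made after these values were seen found that AGPAT3 was the only 1 of the 7800 genes, or 0.0128%, that was above 0 in every lean library and in at most 1 fat library. The rule of that search was drawn from the values of AGPAT3, so its result is a description and not support. Deposited FPKM of AGPAT3 averaged 0.0042 in fat and 0.243 in lean libraries, so it passed the filter only through the lean libraries. The fitted log2 fold change was −1.39 (standard error 0.29, 95% interval −1.99 to −0.78, adjusted p = 0.0128 from limma). Its size is set by the pseudocount, with −3.85 at a pseudocount of 0.01 and −0.25 at 1 (adjusted p = 0.0634), because most fat libraries are listed at 0. AGPAT3 stayed under the threshold without each bird in turn, with adjusted p from 0.0133 to 0.0342. The highest lean value, in bird 8, was far above the others, and without that bird the log2 fold change was −1.20. Median coverage in lean libraries was 0.37 reads per base, a small amount of sequence. LOC115497007, which overlaps the end of AGPAT3 on the other strand, was listed at 0 in every library.

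**Figure D1:**
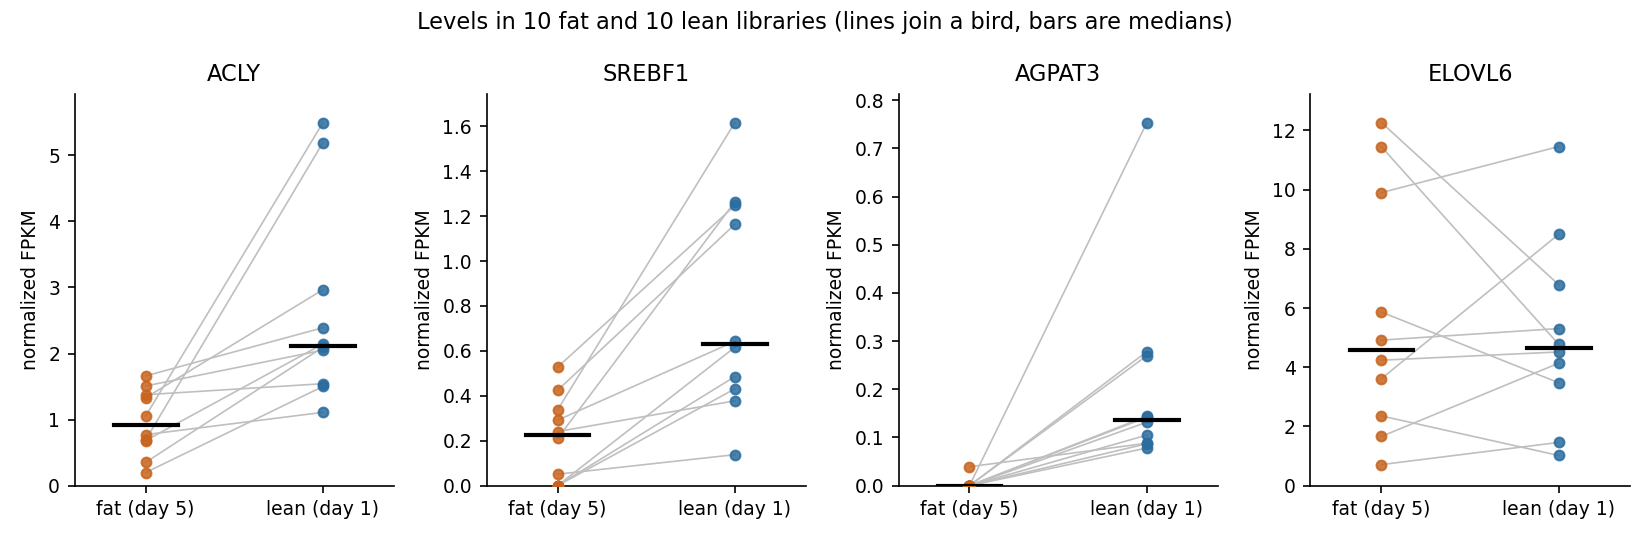
Normalized FPKM (vertical axis, linear, from 0) of ACLY, SREBF1, AGPAT3 and ELOVL6 in 10 fat libraries (orange, left) and 10 lean libraries (blue, right) of each panel, with grey lines joining the libraries of a bird and black bars at the medians. Every line of ACLY, SREBF1 and AGPAT3 is lower at the fat end, and AGPAT3 is at 0 in 9 fat libraries, while the medians of ELOVL6 are 4.58 in fat and 4.64 in lean libraries.

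The falls of ACLY, SREBF1 and AGPAT3 were not detectably related in size across birds. The log2 differences of the 10 birds (fat minus lean) had a Pearson r of −0.04 between ACLY and SREBF1 (permutation p = 0.91, Spearman rho −0.07, permutation p = 0.869). For ACLY and AGPAT3 r was −0.40 (permutation p = 0.262) and rho −0.26 (permutation p = 0.471), and for SREBF1 and AGPAT3 r was −0.08 (permutation p = 0.857) and rho 0.19 (permutation p = 0.605). After Benjamini-Hochberg adjustment over these 3 relations the smallest p was 0.785 for r and 0.869 for rho. When the 2 birds with the most extreme value of the first gene were left out, r was −0.29 for ACLY and SREBF1, −0.10 for ACLY and AGPAT3 and −0.13 for SREBF1 and AGPAT3. The birds with the largest falls of the 3 genes also differed, bird 2 for ACLY, bird 1 for SREBF1 and bird 8 for AGPAT3. AGPAT3 was listed at 0 in 9 fat libraries and SREBF1 in 3, those of birds 1, 6 and 7. In these birds the difference is set by the lean level and the pseudocount. The relations with SREBF1 and AGPAT3 therefore cannot decide whether the falls go together.

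The enzymes that make malonyl-CoA and palmitate, ACACA and FASN, were at low levels and listed at 0 in some libraries of both conditions. Neither differed detectably between fat and lean libraries. ACACA, the acetyl-CoA carboxylase, was listed at 0 in 3 fat and 2 lean libraries. Its highest level was 0.326 normalized FPKM in fat and 0.47 in lean libraries, with medians of 0.175 in fat and 0.16 in lean libraries. It was lower in the fat library of 5 birds and higher in that of the other 5. Its log2 fold change was −0.21 (95% interval −1.05 to 0.63, adjusted p = 0.799 from limma). FASN, the fatty acid synthase, was listed at 0 in the fat libraries of birds 7 and 9 and in the lean library of bird 3. Its level reached 0.235 in fat and 0.275 in lean libraries, with medians of 0.0964 in fat and 0.149 in lean libraries. FASN was lower in the fat library of 6 birds, with a log2 fold change of −0.31 (95% interval −0.99 to 0.37, adjusted p = 0.611 from limma). The intervals of both genes include falls and rises, and neither gene was tested against ACLY.

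ELOVL6, the elongase that turns palmitate into stearate, had the highest level of the set and, in normalized FPKM, a wide spread between birds. It ranged from 0.712 to 12.3 normalized FPKM in fat libraries and from 1.02 to 11.5 in lean libraries. The fat value was lower in 6 birds and higher in 4, between −1.27 in bird 10 and 1.25 in bird 9 on the log2 scale. The log2 fold change was 0.01 (95% interval −0.95 to 0.98, adjusted p = 0.99 from limma), and with bird in the model the interval narrowed to −0.56 to 0.59. Bird 7 was low on both days, with 0.712 when fat and 1.46 when lean, and bird 1 was high on both, with 9.90 when fat and 11.5 when lean. SCD, the desaturase that follows ELOVL6, was listed at 0 in 9 fat and 6 lean libraries. Its highest value was 0.588 in the fat library of bird 8, and in lean libraries it reached 0.126.

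ME1, the malic enzyme that supplies NADPH, was the gene of the set with the highest positive fold change, but it did not pass the test. It was above 0 in 7 fat and 3 lean libraries, up to 1.48 normalized FPKM in fat and 0.46 in lean libraries. Both of these highest values came from bird 8. The fat value was higher in 6 birds and lower in 2, and 2 birds were listed at 0 on both days. The log2 fold change was 0.61 (standard error 0.50, 95% interval −0.42 to 1.65, adjusted p = 0.494 from limma). Without bird 10 it was 0.38, and without bird 8 it was 0.51. ME1 shares the edge of its span with RWDD2A on the other strand, and no source used here says whether the counting used strand. RWDD2A itself averaged 0.0471 in fat and 0.0787 in lean libraries.

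DGAT2, which makes the last bond of a triglyceride, was above 0 in 1 fat library, at 0.134 in bird 2, and in 2 lean libraries, at 0.161 in bird 4 and 0.0356 in bird 6. LPIN1, a phosphatidate phosphatase, was listed at 0 in all 10 fat libraries and had 0.0747 in 1 lean library, that of bird 2. Neither gene, nor SCD, reached the filter. When it was removed and 12705 genes were tested, their adjusted p values from limma were 0.938 for SCD, 0.875 for DGAT2 and 0.598 for LPIN1. No difference was detectable in these 3 genes at this depth.

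**Figure D2:**
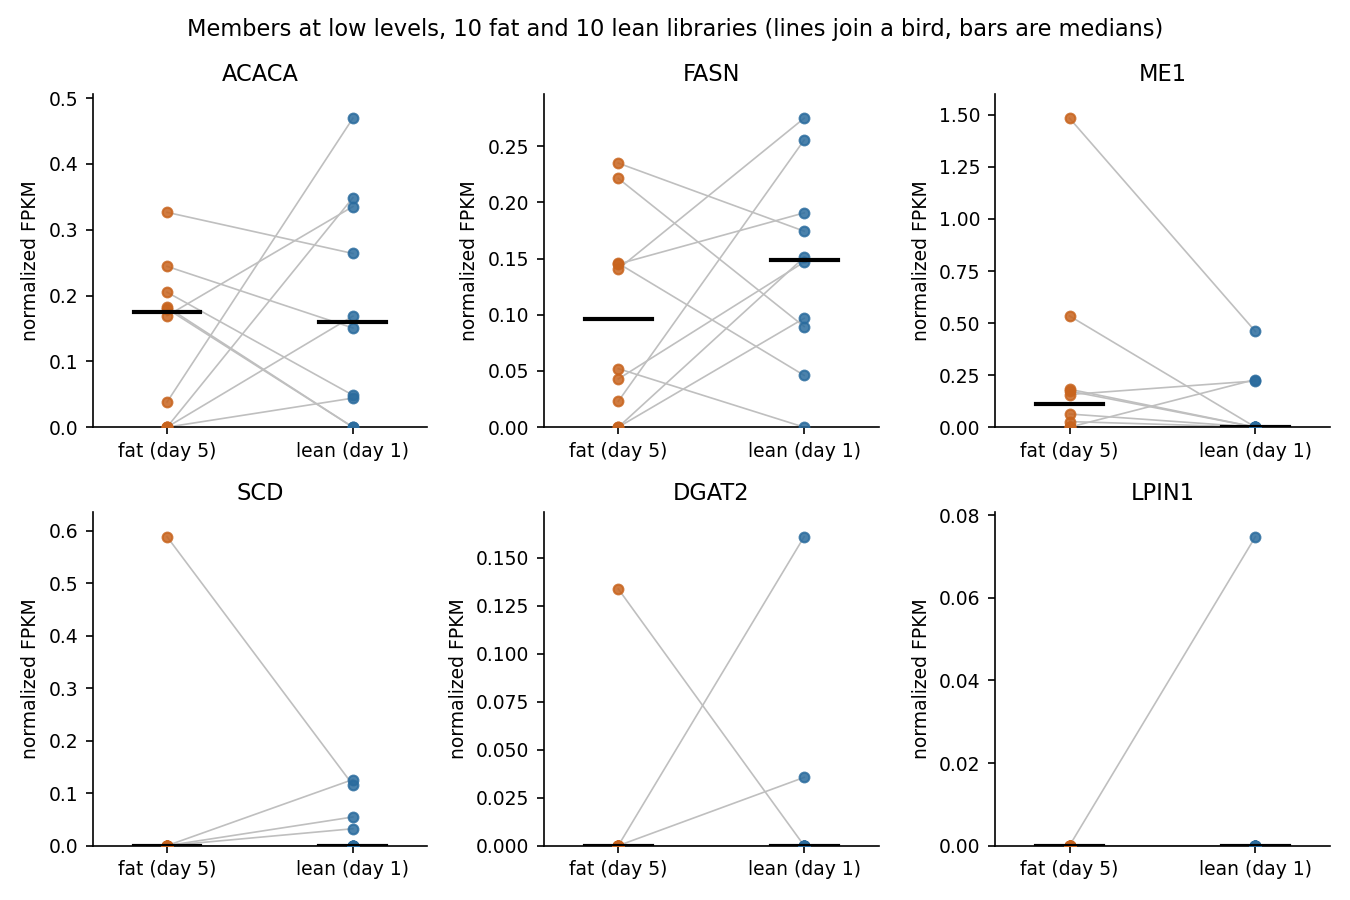
Normalized FPKM (vertical axis, linear, from 0, a scale of its own in each panel) of ACACA, FASN, ME1, SCD, DGAT2 and LPIN1 in 10 fat libraries (orange, left) and 10 lean libraries (blue, right), with grey lines joining the libraries of a bird and black bars at the medians. Lines cross in both directions for ACACA and FASN, ME1 is above 0 in 7 fat and 3 lean libraries, and LPIN1 is above 0 in 1 lean library.

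Other genes of lipid synthesis were taken from 5 lists, and 45 of the 66 symbols found in the files were tested. Of these 45, 4 were called lower and 0 higher in fat birds by limma, where 3.27% of all genes were called lower and 1.49% higher. An unadjusted p under 0.05 was found for 15 of the 45, and for 1731 of all 7800 genes. The median log2 fold change of the 45 was −0.17, against −0.10 for all genes tested. With bird in the model 10 were called, 7 lower and 3 higher, where 8.08% of all genes were called lower and 5.18% higher in that fit. Without birds 8 and 10, whose sample codes differ between sources, that fit called 3 of the 45 genes, 2 of them lower. The 2 lower calls were PGD and ACSBG2 (adjusted p of 0.0347 and 0.0326 from limma). SREBF2, STK11, ACSS2, DBI and GPAT4 were no longer called (adjusted p of 0.0895, 0.0724, 0.163, 0.175 and 0.0803 in that order). SLC25A1 was likewise no longer called, and of NR1H3 and CS not both were still called. Calls over all 7800 genes also dropped there, to 301 (172 lower) from 1034 (630 lower) with all 10 birds. The lists were chosen with earlier results known. ACSBG2, which was called, and AGPAT2 and FABP5, with an unadjusted p under 0.05, were low in the fat group and entered the test through the lean group. The counts of the 45 genes are therefore a description and not independent support.

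Among 15 tested regulators of the pathway, only SREBF2 was called lower and 0 were called higher, against 3.27% and 1.49% of all genes. SREBF2 encodes the sister factor of SREBP-1, best known for control of cholesterol synthesis. It ranged from 0.108 to 0.659 normalized FPKM in fat libraries and from 0.228 to 1.82 in lean libraries, and it was lower in the fat library of all 10 birds. The groups overlapped in part, with 6 lean libraries above the highest fat library. Its log2 fold change was −1.23 (standard error 0.35, adjusted p = 0.0471 from limma), and the call was lost under 18 alternatives, among them the omission of any bird but 1 (bird 4). The fit with bird gave an adjusted p of 0.0208, and the call was kept in 9 of 10 omissions, lost without bird 10 (0.0519). STK11, the kinase that activates AMPK, ranged from 26.5 to 48.1 in fat and from 17.8 to 36.9 in lean libraries, was higher in the fat library of 9 birds and passed with bird in the model (adjusted p = 0.0314, against 0.124 without). That call was lost without bird 1, 2, 5, 6, 7 or 10, at up to 0.0664, and with log2 depth added (0.0523). NR1H3, the liver X receptor alpha that acts upstream of SREBF1, passed in that fit too (adjusted p = 0.0342, against 0.129 without), with means of 13.02 in fat and 8.24 in lean libraries. NR1H3 was looked up after its value was seen. With bird in the model, NR1H3 and CS (below) were not both called higher without birds 8 and 10, without bird 10 alone, or with log2 depth added. Which of them was lost was not examined. MLXIPL, the sugar-sensing partner factor of this pathway, was looked up as well and was listed at 0 in all 20 libraries.

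In the list of acetyl-CoA and NADPH supply, 8 genes were tested. PGD was called lower and 0 were called higher, against 3.27% and 1.49% of all genes. PGD, an enzyme of the pentose phosphate pathway that makes NADPH, ranged from 0.745 to 4.84 normalized FPKM in fat and from 2.89 to 13.001 in lean libraries. It was lower in the fat library of all 10 birds, and 7 fat libraries lay below every lean library. Its log2 fold change was −1.34 (standard error 0.32, adjusted p = 0.0282 from limma). The adjusted p rose above the threshold without bird 1, 2, 8 or 10, up to 0.0671, and with bird in the model it was at most 0.0163 over the 10 omissions. ACSS2, which makes acetyl-CoA from acetate, had from 0 to 0.86 in fat and from 0.575 to 2.997 in lean libraries. It passed with bird in the model (adjusted p = 0.0424, against 0.0776 without), a call kept in 2 of the 10 omissions of a bird. SLC25A1, the citrate carrier that feeds ACLY, also passed in that fit (adjusted p = 0.0156, against 0.0982 without) and was lower in the fat library of 9 birds, with means of 3.17 in fat and 6.67 in lean libraries. CS, the citrate synthase of mitochondria, went the other way in the same fit, with means of 54.8 in fat and 37.5 in lean libraries (adjusted p = 0.0175, against 0.0944 without). SLC25A1 and CS were chosen after their values were seen. SLC25A1 was no longer called in that fit without birds 8 and 10. Whether the calls of SLC25A1 and CS hold without each single bird was not examined gene by gene.

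Fatty acid elongation and desaturation had 7 tested genes. HACD4 was called lower and 0 were called higher, against 3.27% and 1.49% of all genes. HACD4, a dehydratase of the elongation cycle, ranged from 0.335 to 1.91 normalized FPKM in fat and from 0.655 to 3.68 in lean libraries. It was lower in the fat library of 7 birds and higher in 3. The call (log2 fold change −1.17, adjusted p = 0.0446 from limma) was lost under 26 alternatives, among them bird in the model (adjusted p = 0.0515). FADS1, a desaturase of long fatty acids, had medians of 0.446 in fat and 0.753 in lean libraries and was not called (adjusted p = 0.282).

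ACSBG2, an enzyme that activates fatty acids with CoA, was called lower among 7 genes of the acyl-CoA list. Of these 7, 0 were called higher, where 3.27% of all genes were called lower and 1.49% higher. Deposited FPKM of ACSBG2 averaged 0.0528 in fat and 0.761 in lean libraries, so it passed the filter only through the lean libraries. It was listed at 0 in 7 fat and 2 lean libraries, and reached 0.366 normalized FPKM in fat and 2.12 in lean libraries. It was lower in the fat library of 8 birds, and its log2 fold change was −1.91 (adjusted p = 0.0404 from limma, standard error 0.52), and the call was lost under 16 alternatives, among them the omission of any bird but birds 7 and 8. The fit with bird gave an adjusted p of 0.0195, and the call was kept in 9 of 10 omissions, lost without bird 10 (0.052). DBI, the acyl-CoA binding protein, was listed at 0 in 3 fat libraries and ranged from 0.557 to 6.03 in lean libraries. DBI passed with bird in the model (adjusted p = 0.0443, against 0.091 without), a call kept in 2 of the 10 omissions of a bird. The median log2 fold change of this list was −0.96, against −0.10 for all genes tested. All 7 of its genes were below 0, against 57% of all genes. This count is a description only, because ACSBG2, and likewise FABP5 with a mean of 0.0249 normalized FPKM in fat and 0.328 in lean libraries, were low in the fat group and entered the test through the lean group.

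Of 8 tested genes of glycerolipid assembly, 0 were called by limma and 2 had an unadjusted p under 0.05. Over all 7800 genes, 3.27% were called lower, 1.49% were called higher and 1731 had an unadjusted p under 0.05. GPAT4, which starts glycerolipid synthesis, ranged from 1.98 to 5.97 normalized FPKM in fat and from 3.94 to 7.09 in lean libraries and was lower in the fat library of 9 birds. It passed with bird in the model (log2 fold change −0.59, adjusted p = 0.0222, against 0.0768 without), a call lost without bird 5 or 10, at up to 0.0544. AGPAT2, a relative of AGPAT3 with the same reaction, was listed at 0 in all 10 fat libraries and in 6 lean libraries, and reached 1.505 in the lean library of bird 2 (adjusted p = 0.161). It passed the filter only through the lean libraries, where its deposited FPKM averaged 0.417, so it could only come out lower in fat birds. LPIN2, a relative of LPIN1, was present in every library, with a mean of 43.1 ± 10.9 in fat and 34.9 ± 9.31 in lean libraries (SD, n = 10 each, adjusted p = 0.282). LPIN2 was looked up after its value was seen.

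**Figure D3:**
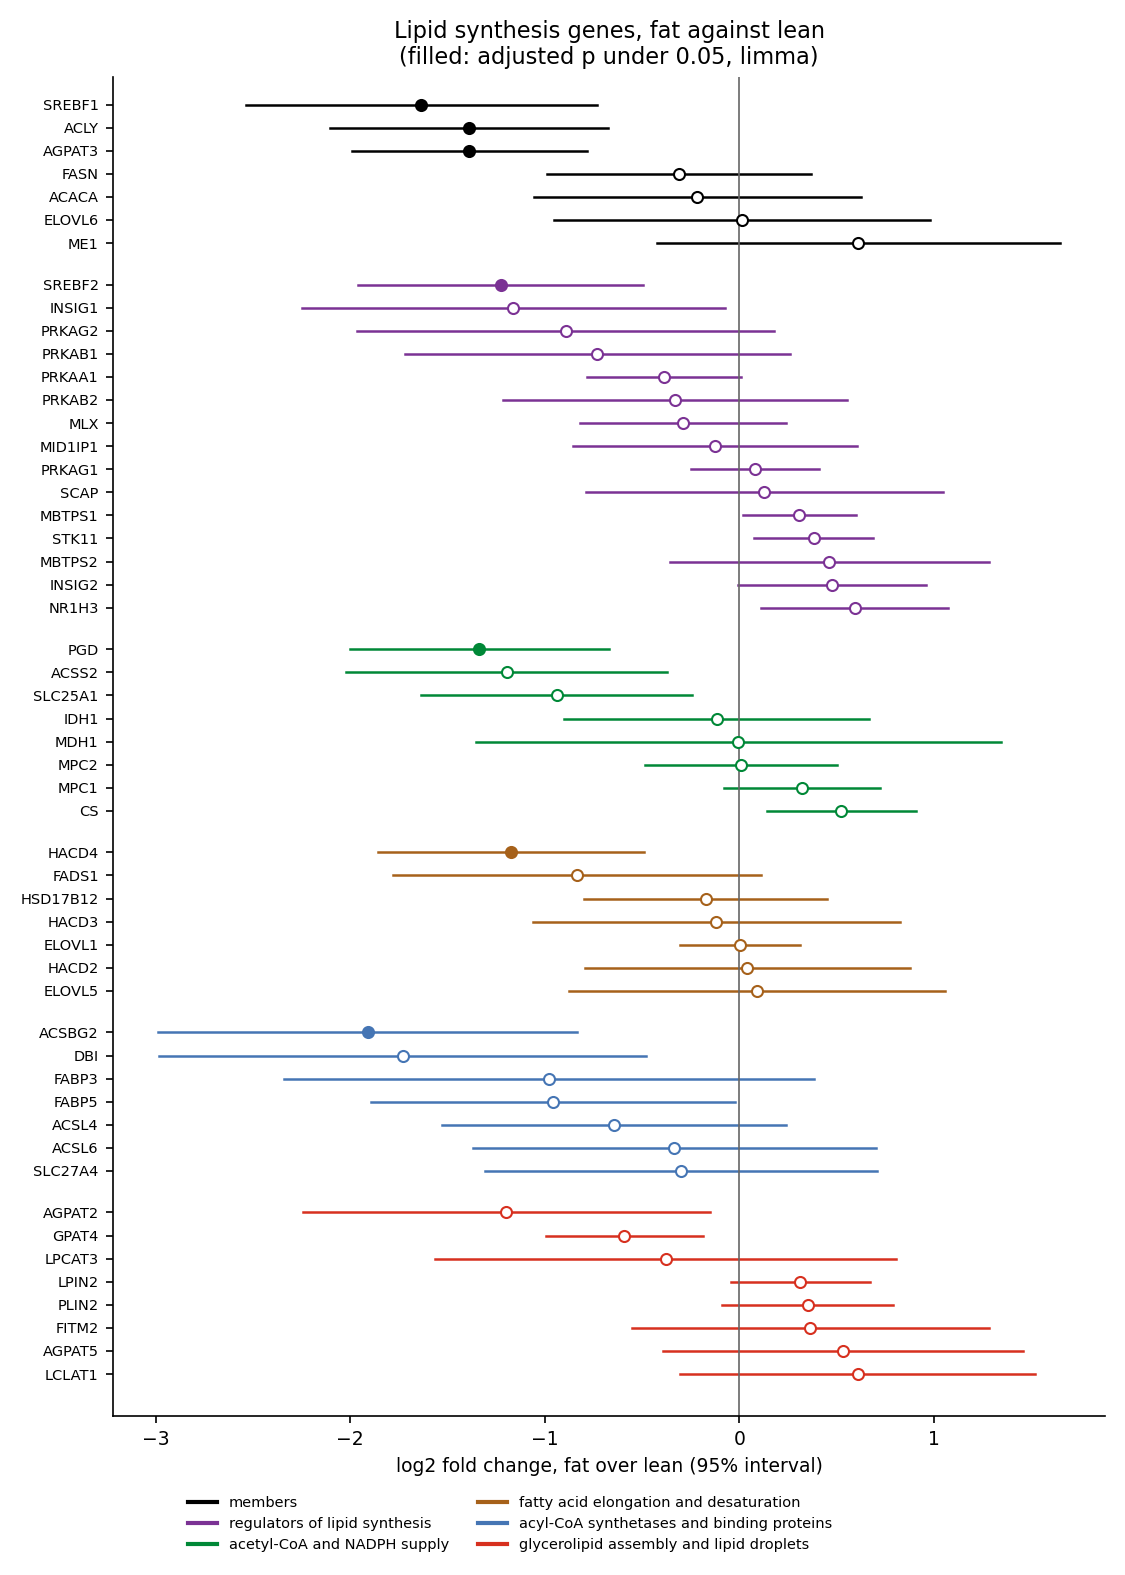
Log2 fold change, fat over lean (horizontal axis), with its 95% interval for the 7 tested genes of the set (black, top) and for the 45 tested genes of 5 further lists (colours). Filled circles mark an adjusted p under 0.05 in limma, which are ACLY, SREBF1 and AGPAT3 of the set and SREBF2, PGD, HACD4 and ACSBG2 of the lists, all below 0.

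Some markers of thrombocytes were lower in fat birds. Of 7 tested thrombocyte markers, 3 (GP1BB, ITGB3 and F13A1) were called lower and 0 higher, where 3.27% of all genes were called lower. The log2 fold change was below 0 for 6 of the 7, against 57% of all genes tested. It was above 0 for TUBB1 (0.10, adjusted p = 0.826 from limma). TUBB1 had means of 37.4 normalized FPKM in fat and 36.6 in lean libraries, and was lower in the fat library of 5 birds and higher in 5. With bird in the model 6 were called lower, where 8.08% of all genes were. The summed level of the 8 thrombocyte markers ran from 71.0 to 96.1 normalized FPKM in fat and from 60.0 to 181 in lean libraries, and was lower in the fat library of 8 birds. Of 6 tested monocyte and heterophil markers, 0 were called by limma, 4 had an unadjusted p under 0.05, and all 6 had a log2 fold change below 0. An unadjusted p under 0.05 was found for 1731 of all 7800 genes, and a log2 fold change below 0 for 57% of them all. With bird in the model 3 of the 6, CSF1R, CSF3R and SPI1, were called lower, against the same 8.08% of all genes. Their summed level, over the 9 symbols found, ran from 0.614 to 5.58 in fat and from 1.60 to 22.5 in lean libraries, and was lower in the fat library of 9 birds. LYZ and CD14 were listed at 0 in every library. The summed erythroid level, mostly globin, ran from 162732 to 298181 in fat and from 120484 to 184840 in lean libraries, and was higher in the fat library of all 10 birds. Of its 6 tested genes 0 were called by limma and 2 had an unadjusted p under 0.05. With bird in the model EPB42 was called higher (adjusted p = 0.0443 from limma), where 5.18% of all genes were. The part of these cell types in the falls of ACLY, SREBF1 and AGPAT3 was not tested.

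Several defining markers of tissues known for fat synthesis were listed at 0. In the adipocyte list ADIPOQ and PLIN1, its defining markers, and LEPR were at 0 in all 20 libraries, and FABP4 was not among the symbols found. LPL, which other cells also express, was above 0 in all 20 libraries. PPARG was above 0 in 0 fat and 4 lean libraries, and CIDEC in 0 fat and 1 lean library. The liver markers ALB, FGB, TTR and AHSG were listed at 0 in every library, and APOA1 was above 0 in 1 fat and 7 lean libraries. SERPINC1, the remaining gene of the liver list, was above 0 in 7 fat and 9 lean libraries, with means of 0.388 normalized FPKM in fat and 0.648 in lean libraries. The T cell markers CD3E and CD5 were listed at 0 in every library, and the summed T cell markers ran from 0 to 2.80 in fat and from 1.26 to 7.25 in lean libraries. By mean level this sum was mostly TRAF3IP3 (1.06 normalized FPKM in fat and 2.01 in lean libraries). CD79B, a B cell marker, was above 0 in 0 fat and 4 lean libraries, and the summed B cell markers ran from 0.0825 to 9.17 in fat and from 0.119 to 13.05 in lean libraries. Most of the B cell sum, by mean level, was CD74 (3.16 in fat and 5.41 in lean libraries).

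**Figure D4:**
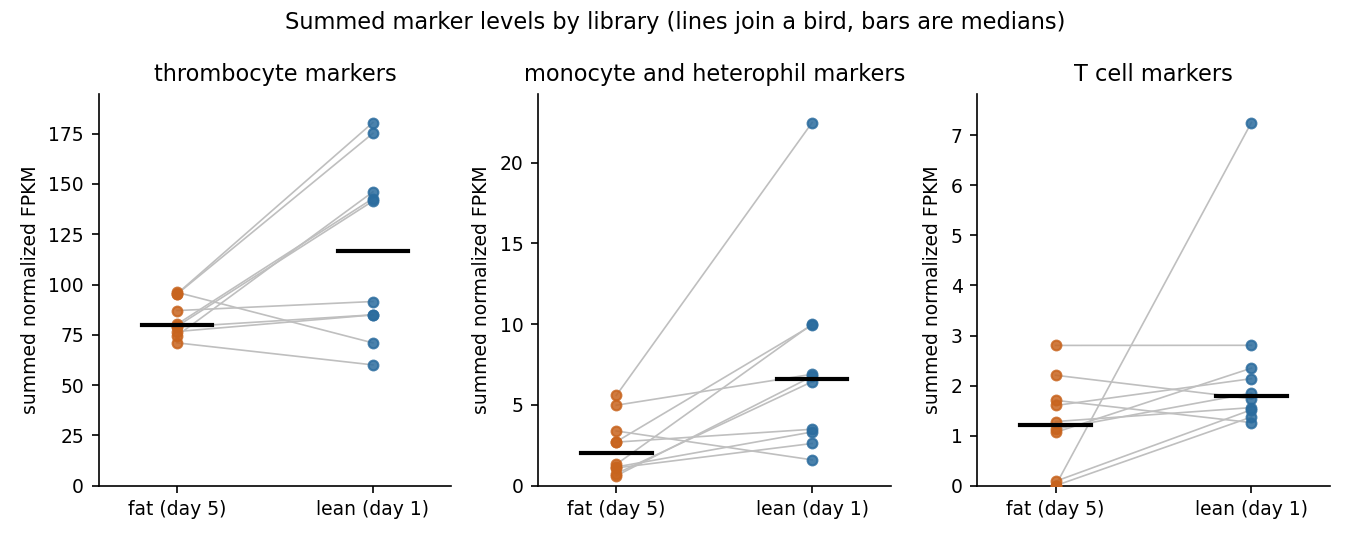
Summed normalized FPKM (vertical axis, linear, from 0) of thrombocyte, monocyte and heterophil, and T cell markers in 10 fat libraries (orange, left) and 10 lean libraries (blue, right), with grey lines joining the libraries of a bird and black bars at the medians. The thrombocyte sum reaches 96.1 in fat and 181 in lean libraries, and the monocyte and heterophil sum reaches 5.58 in fat and 22.5 in lean libraries. By mean level the T cell sum is mostly TRAF3IP3.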

How the data were processed

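Per the labels and the methods of the paper, the authors trimmed the reads, mapped them with STAR to the zebra finch genome and quantified genes with StringTie. They deposited for each library the coverage signal (mean read depth per base), FPKM and TPM, without scaling between libraries. The versions of STAR and StringTie are not given in the sources used here.

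FPKM of lines with the same symbol was summed and divided by median-of-ratios factors over the 4487 symbols above 0 in every library. These factors ran from 0.754 to 1.07 in fat and from 1.06 to 1.28 in lean libraries. Depth is the median ratio of coverage to FPKM over lines with an FPKM above 1. Libraries were compared in limma 3.58.1 (R 4.3.3, linear model with condition, trend, two-sided), without a bird term because the methods name none. The study's own test of counts was not run, as the tables hold no counts. The code was tested on simulated data. Correlations used scipy 1.17.1 with 100000 permutations, and figures matplotlib 3.10.9. The genes and lists were chosen with earlier results of these data known. Besides the 10 genes, the text names from each further list every gene called and, where fewer than 2 were called, those with the smallest p up to 2. Other pathway genes named are said to be looked up or chosen afterwards, or are given with a list's count.

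As deviations from the mean of their condition, fat and lean values of 1 bird correlated over genes at r of 0.152 to 0.382 (median −0.0245 for different birds), so the replicate numbers, which mark the bird, pair the libraries. For bird 8 r was 0.206, against at most 0.0403 with the lean library of another bird. For bird 10 it was 0.265, against at most 0.08. The alternatives were bird as a block, 2 other pseudocounts, other filters and scalings, quality weights, depth and the TPM share of the 10 most abundant genes as covariates, and omission of each bird. Omission of birds 8 and 10 without a bird term, and of each bird with one, was added after the data were seen. No sequences are shown.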

Additional observations from a re-analysis of the deposited data

Results flagged for a closer look

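Of 38 groups of 10 libraries examined (1 gene in 1 condition), 7 had a highest value that stood apart from the rest by more than Dixon's 95% limit on the log2 scale. For normally spread values chance alone flags about 1 in 20 groups, a rate that does not apply to groups mostly listed at 0. In 4 of the 7 a single library was above 0 and the others were listed at 0, so the flag was fixed in advance. These were SCD in the fat library of bird 8 (0.588 normalized FPKM), AGPAT3 in the fat library of bird 3 (0.0393), DGAT2 in the fat library of bird 2 (0.134) and LPIN1 in the lean library of bird 2 (0.0747). The others were AGPAT3 in the lean library of bird 8 (0.753), DGAT2 in the lean library of bird 4 (0.161) and ACSBG2 in the fat library of bird 2 (0.366).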

How the results depend on the processing

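ACLY, SREBF1 and AGPAT3 kept a negative log2 fold change under every alternative run. Omitting birds or changing the pseudocount could not turn these signs, because all 3 genes were lower in all 10 birds when fat. AGPAT3 also passed the filter only through the lean libraries, so its kept calls are not independent support. Under quantile normalization the values were −1.14 (ACLY), −1.30 (SREBF1) and −0.95 (AGPAT3), none past the threshold in limma although 3 had an unadjusted p under 0.05, and with the TPM share of the 10 most abundant genes as a covariate they were −1.02, −1.13 and −1.32, likewise. This share ran from 81.2% to 86.6% in fat and from 73.9% to 84.6% in lean libraries. It went partly with the condition, so that fit cannot fully separate the share from the condition. The call was also lost for ACLY and SREBF1 with no filter (−1.39 and −1.63), with log2 depth as a covariate (−1.29 and −1.45) and without birds 8 and 10 in the fit with no bird term (−1.53 and −1.66), for SREBF1 with a pseudocount of 0.01 (−2.75) and quality weights (−1.49), and for AGPAT3 with a pseudocount of 1 (−0.25). With bird as a block all 3 stayed called, also without birds 8 and 10 and with log2 depth added, and with each bird left out in turn. Without each bird in turn and no bird term, ACLY ran from −1.53 to −1.24, SREBF1 from −1.76 to −1.50 and AGPAT3 from −1.49 to −1.20. The number of the set called lower, 3, was 1 with no filter, with a mean FPKM of at least 1 (which removes SREBF1 and AGPAT3), with log2 depth as a covariate and without birds 8 and 10 with no bird term, was 0 with quantile normalization and with the TPM share, and ran from 1 to 3 over single birds left out, always 3 with the bird block. Signs turned for ACACA under quantile normalization (0.0076), for FASN there (0.28) and with the TPM share (0.021), for ELOVL6 with FPKM (−0.28) and TPM (−0.38) as deposited, quality weights (−0.11) and the bird block with depth (−0.039), and for STK11 with TPM (−0.022). Over single birds left out ACACA ran from −0.41 to 0.0021 and ELOVL6 from −0.12 to 0.16. Of the 5 lists, 4 genes were called, against 10 with the bird block, 9 with FPKM and 9 with TPM as deposited, 2 with a mean FPKM of at least 1 and 2 with quality weights, 1 with a pseudocount of 0.01, 1 with quantile normalization, 1 with depth, and 0 with no filter, the TPM share or without birds 8 and 10 with no bird term (17, 8 and 13 at an unadjusted p under 0.05 in limma), and 0 to 4 over single birds (3 to 13 with the block).

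Over all 7800 genes 371 were called, 255 of them lower in fat birds. The count was 1034 (630 lower) with the bird block, 615 with the block and depth, 882 (856 lower) with FPKM and 1243 (1225 lower) with TPM as deposited, 178 (105 lower) with quantile normalization, 160 with depth, 120 with no filter, 40 without birds 8 and 10 and with no bird term, 301 (172 lower) without these birds and with the bird block, and 15 (1 lower) with the TPM share, and 73 to 400 over single birds left out (554 to 1133 with the block). The median log2 fold change of all genes was −0.35 with FPKM and −0.43 with TPM as deposited and 0.05 after quantile normalization, against −0.10. The cause of these differences between settings was not tested. Low coverage limits what can be said of SREBF1, AGPAT3, ACACA and FASN. The deposited tables were made on the genome of another species.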
